A study of Drosophila melanogaster with 8 samples.

Results

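The difference in the response to germline stwl RNA interference between the drivers nosGAL4 and bamGAL4 was measured in adult Drosophila melanogaster ovaries. For each gene, the log2 fold change of libraries labelled knockdown over their controls was taken with each driver. The driver difference is the nosGAL4 fold change minus the bamGAL4 fold change, tested as an interaction. All genes that passed a filter on low counts were members, 8957 of the 14094 genes listed, and no measured difference was used to choose them. A positive driver difference means that the level rose more, or fell less, with nosGAL4.

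The 4 groups held 2 libraries each, from whole ovaries dissected between day 1 and day 3 after eclosion. The nosGAL4 libraries labelled knockdown came from nosGAL4;stwl RNAi/TM6 females and their controls from nosGAL4;MKRS/TM6 females. The bamGAL4 libraries labelled knockdown came from bamGAL4>stwl RNAi/TM6 females and their controls from bamGAL4 females, the 1 group with no balancer in its genotype. TM6 and MKRS are balancers of chromosome 3. Each driver was deposited as its own table, so driver, genetic background, balancer and any batch cannot be told apart in a comparison between drivers. Nothing in the labels says that the 2 libraries of a group came from separate crosses, so p-values measure the spread between these libraries, which may be technical.

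In the Drosophila ovary, germline stem cells divide to give cystoblasts, which form cysts in which 1 cell becomes the oocyte, while somatic follicle cells surround each cyst and later secrete the eggshell. The nanos promoter is active from the stem cell onward, whereas the bag of marbles (bam) promoter is active in the dividing cyst. Stonewall, the product of stwl, is a chromatin-associated MADF-domain protein needed for germline stem cell maintenance and oocyte fate.

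Total counts ran from 7473859 to 12174983 per library. Levels are given as CPM, counts scaled to a common library size of 1e+06. Within a group, log2 CPM correlated least, with a Pearson r of 0.925, for the nosGAL4 libraries labelled knockdown and with 0.97 to 0.984 in the other groups. stwl itself measured 61.1 and 27.7 CPM in nosGAL4 libraries labelled knockdown, against 23.1 and 16.9 CPM in nosGAL4 controls. It measured 23.2 and 29.6 CPM in bamGAL4 libraries labelled knockdown, against 18.2 and 21.0 CPM in bamGAL4 controls, so a lower stwl level was not seen in either set labelled knockdown. With nosGAL4 stwl was called higher in libraries labelled knockdown (log2 fold change 1.15, SE 0.37, edgeR adjusted p = 0.0203). With bamGAL4 its fold change of 0.43 did not pass the test (edgeR adjusted p = 0.313). The driver difference of stwl was 0.72 (SE 0.51) and did not pass the test (edgeR adjusted p = 0.405), but was 1.17 with an adjusted p of 0.0487 without nosGAL4 labelled knockdown replicate 2. The germline gene nos was at 1.46 to 4.59 CPM in the 4 libraries labelled knockdown and 408 to 499 CPM in the 4 controls. Not all germline genes fell: of 19 germline identity genes, nos among them, 13 fell and 3 rose with nosGAL4. With bamGAL4 14 fell and 2 rose, and tud and Sxl rose with both drivers. Muscle sheath genes summed to 52200 and 60000 CPM in nosGAL4 libraries labelled knockdown, against 1180 and 1340 CPM in their controls. With bamGAL4 they summed to 68100 and 62300 CPM in libraries labelled knockdown, against 1130 and 1250 CPM in controls. In whole ovaries, fewer cells of a type and less RNA per cell cannot be told apart.

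A driver difference passed the test in a small share of genes. With edgeR's quasi-likelihood test and an adjusted p under 0.05, 240 genes (2.68%) had a driver difference, 136 of them positive (1.52%) and 104 negative (1.16%). The unadjusted p was under 0.05 in 2213 genes, and the fitted difference was over 2-fold in 2960 (33%), so genes without a call are not shown to respond alike. Single-driver calls were far more frequent: 5307 genes (59.2%) changed with nosGAL4, 33.5% up and 25.7% down, and 6099 genes (68.1%) changed with bamGAL4, 35% up and 33.1% down. Over the 8957 genes, the log2 fold changes with the 2 drivers had a Pearson correlation of 0.824 and a Spearman correlation of 0.845, as a description across genes, which are not independent replicates. The median driver difference over all genes was 0.157, with quartiles of -0.538 and 0.808. That median moved with the scaling: it was 0.006 with RLE size factors and -1.23 when libraries were scaled to ribosomal protein genes. The share of positive calls also moved with the scaling. There were 119 positive and 161 negative calls with RLE size factors, 104 and 176 with library totals, and 94 and 3331 with scaling to ribosomal protein genes.

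**Figure D1:**
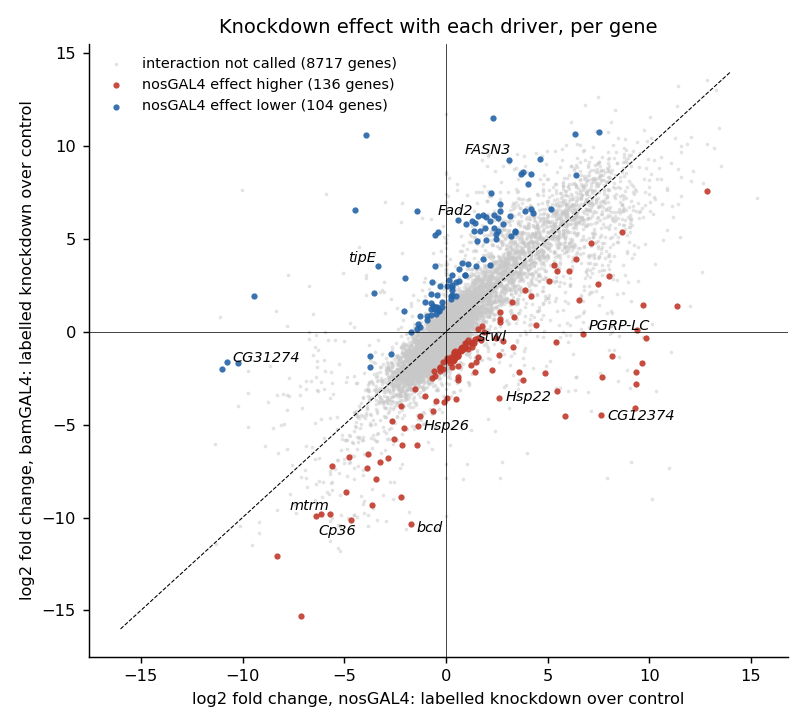
Log2 fold change of libraries labelled knockdown over controls with nosGAL4 (x axis) and bamGAL4 (y axis), with 1 point per gene and the 240 called genes in colour. The dashed line marks equal responses, around which the 8957 genes scatter, while called eggshell genes such as Cp36 lie below it and lipid genes such as FASN3 above it.

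Among the 136 genes with a positive difference, 39 fell with bamGAL4 and were not called with nosGAL4, 28 rose with nosGAL4 and fell with bamGAL4, 27 fell with both, 25 rose with nosGAL4 and were not called with bamGAL4, and 17 rose with both. Among the 104 genes with a negative difference, 45 rose with both drivers, 37 rose with bamGAL4 and were not called with nosGAL4, 11 fell with nosGAL4 and rose with bamGAL4, 6 fell with both and 5 fell with nosGAL4 alone among the tests. Those 5 were Axn, mei-217, aralar1, Pgant9 and CG31886.

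Which of the 4 groups makes the difference was read from 2 further contrasts, whose difference is the driver difference: nosGAL4 minus bamGAL4 among libraries labelled knockdown, and the same among controls. Over all genes, 371 (4.14%) differed between the sets labelled knockdown, 2.02% higher and 2.12% lower with nosGAL4. Between the control sets 609 (6.8%) differed, 3.11% higher and 3.68% lower with nosGAL4. Of the 240 calls, 112 (46.7%) lay on the control side, 95 (39.6%) on the labelled knockdown side, 8 (3.33%) on both and 25 (10.4%) on neither. A side was assigned where its contrast alone passed the test, or where both passed and it was at least 2 times as large. Of the 136 positive calls, 69 were on the control side and 43 on the labelled knockdown side. For the 104 negative calls the labelled knockdown side held 52 and the control side 43. A single group stood apart from the range of the other 3 group means, by more than that range, in all but 119 calls. It was the bamGAL4 libraries labelled knockdown in 44 genes (18.3%), the bamGAL4 controls in 43 (17.9%), the nosGAL4 controls in 23 (9.58%) and the nosGAL4 libraries labelled knockdown in 11 (4.58%). Over all genes tested these shares were 9.39%, 9.75%, 6.2% and 5.2%, in the same order. No group stood apart in 69.5% of all genes, against 49.6% of calls. A group apart by this rule itself gives a driver difference. Larger shares among calls than among all genes are therefore built in and are given no weight.

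**Figure D2:**
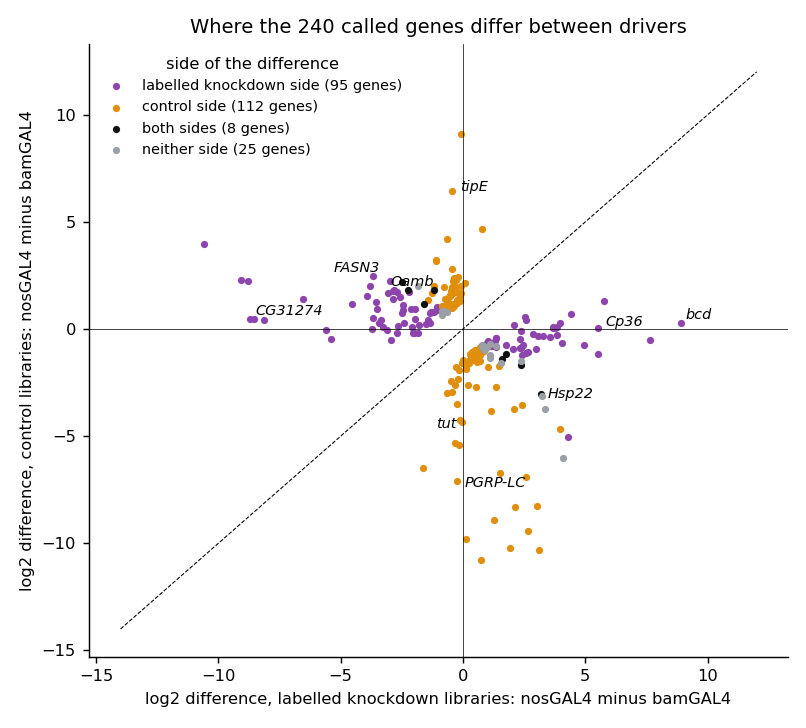
For the 240 called genes, the log2 difference nosGAL4 minus bamGAL4 among libraries labelled knockdown (x axis) and among controls (y axis), coloured by side. Genes along the horizontal axis, such as Cp36 and bcd, differ between the sets labelled knockdown, and genes along the vertical axis, such as PGRP-LC and tipE, differ between the control sets.

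The number of calls kept when 1 library was left out differed by group. Leaving out a nosGAL4 library labelled knockdown kept 230 of the 240 calls without replicate 1 and 240 without replicate 2, in fits that called 463 and 1570 genes in all. Without bamGAL4 labelled knockdown replicate 1 or replicate 2, 34 and 28 calls were kept, without nosGAL4 control replicate 1 or 2, 63 and 49, and without bamGAL4 control replicate 1 or 2, 61 and 102. Of the 72 called genes named by rule, 13 stayed called in all 8 of these fits and 19 in 2 of them, and none of the 72 changed direction. Through these 8 fits and 9 other settings, 13 positive and 7 negative calls of the 240 were retained. These 20 genes were Hsp22, Hsp23, Hsp26, Hsp27, DnaJ-1, Cp36, dhd, mtrm, Ctf4, PGRP-LC, pst, CG4562 and CG30503 among positive calls, and Fad2, Oamb, smash, CG16904, CG31274, CG42507 and CG32581 among negative calls. Of the 20, 9 lay on the labelled knockdown side, 7 on the control side and 4 on both.

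Eggshell genes fell much further with bamGAL4 than with nosGAL4. All 26 chorion and vitelline membrane genes listed were tested. The driver difference was above 0 in 26, against 56.1% of all genes, with a median of 4.94 against 0.157 for all genes. The test called 7 positive (26.9%, against 2.68% of all genes called) and none negative. The median fold change was -4.20 with nosGAL4, where 18 genes fell, and -9.54 with bamGAL4, where 26 fell. Summed over the list, levels were 5260 and 1040 CPM in nosGAL4 libraries labelled knockdown, against 27200 and 27900 CPM in nosGAL4 controls. The bamGAL4 sums were 204 and 202 CPM in libraries labelled knockdown, against 24100 and 33200 CPM in controls. The control ranges overlapped, and the sets labelled knockdown did not. Replicate 1 of the nosGAL4 libraries labelled knockdown was the higher of the pair by far, and without it the median driver difference was 2.55. Between 1 and 24 members were called when 1 library was left out, with 1 called without either bamGAL4 library labelled knockdown.

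Cp36, which encodes a major chorion protein (dm6, chromosome X, 8479319 to 8480523), was the 1 gene of the list called in all 17 alternatives. It measured 192 and 97.9 CPM in nosGAL4 libraries labelled knockdown, against 3288.5 and 4050.1 CPM in nosGAL4 controls. With bamGAL4 the libraries labelled knockdown had 3.81 and 2.48 CPM, against 3340.2 and 3837 CPM in bamGAL4 controls. The controls were alike and the bamGAL4 libraries labelled knockdown stood apart, which gave a driver difference of 5.48 (SE 0.51, edgeR adjusted p = 0.00106). Vm34Ca, a vitelline membrane gene, had a driver difference of 6.68 (SE 1.16, edgeR adjusted p = 0.044) and also had its bamGAL4 libraries labelled knockdown apart. Its levels were 695 and 105 CPM with nosGAL4 labelled knockdown, against 1929.7 and 1817 CPM in those controls, and 9.57 and 7.95 CPM with bamGAL4 labelled knockdown, against 4163 and 4302 CPM in those controls. The pair of nosGAL4 values differed widely, and Vm34Ca stayed called in 2 of the 8 fits that left out a library. CG13084, with a difference of 3.68 (SE 0.54), and Vm26Aa, with 4.68 (SE 0.88), were also lowest in bamGAL4 libraries labelled knockdown. In yellow-g2 the bamGAL4 libraries labelled knockdown had no count, so its levels are given: 4.05 and 1.06 CPM with nosGAL4 labelled knockdown and 362 and 360.0 CPM in those controls, against 446 and 576 CPM in bamGAL4 controls. Femcoat and Mur11Da made up the 7.

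Oocyte and germline lists had few calls each, though at larger shares than among all genes. Of 25 maternal and germ plasm mRNAs, 3 were called positive (12%) and none negative. Their median difference was 1.17, with median fold changes of -3.65 with nosGAL4 and -5.17 with bamGAL4. The median difference was -0.03 without nosGAL4 labelled knockdown replicate 1. It was -0.23 when libraries were scaled to ribosomal protein genes, where the median of all genes was -1.23. Between 0 and 10 members were called positive when 1 library was left out. Germline identity genes had 2 positive calls among 19 (10.5%). The 34 piRNA pathway genes had 2 (5.88%), and 28 meiosis genes had 1 positive and 1 negative (7.14%), against 2.68% of all genes. Of 18 genes of oocyte specification and transport, 2 were positive (11.1%), with a median of 0.07, below the 0.157 of all genes. The summed level of germline identity genes was 1750 and 1590 CPM in nosGAL4 libraries labelled knockdown, against 3910 and 3970 CPM in their controls. With bamGAL4 it was 1150 and 1490 CPM in libraries labelled knockdown, against 3220 and 3120 CPM in controls.

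Among single oocyte genes, dhd encodes a thioredoxin of the oocyte and early embryo. It measured 173 and 101.5 CPM in nosGAL4 libraries labelled knockdown, against 1587.5 and 1835.5 CPM in nosGAL4 controls. With bamGAL4 the libraries labelled knockdown had 2.84 and 6.06 CPM, against 3156 and 2595 CPM in bamGAL4 controls, for a driver difference of 5.70 (SE 0.54, edgeR adjusted p = 0.0011). The bamGAL4 libraries labelled knockdown were the group apart. mtrm, whose product inhibits Polo kinase in female meiosis, measured 4.59 and 5.04 CPM with nosGAL4 labelled knockdown, against 231 and 275 CPM in those controls. With bamGAL4 it measured 0.266 and 0.398 CPM in libraries labelled knockdown, against 352 and 265.4 CPM in controls. Its driver difference was 4.11 (SE 0.47, edgeR adjusted p = 0.0031), on the labelled knockdown side. bcd, the anterior determinant, was at 46.2 and 11.1 CPM with nosGAL4 labelled knockdown, against 94.6 and 96.3 CPM in those controls. In bamGAL4 libraries labelled knockdown it was at 0 and 0.0994 CPM, against 74.4 and 84.0 CPM in those controls. On the scale of log2(CPM + 1) its driver difference was 4.25 (edgeR adjusted p of the fitted difference = 0.0218), and it stayed called in 3 of the 8 fits that left out a library.

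The yolk receptor gene yl (3.42, SE 0.62), the piRNA nuclease gene zuc (2.44, SE 0.54), the Tudor-domain gene tej (3.61, SE 0.71), the germline sex and oogenesis gene otu (1.96, SE 0.43) and the villin-like actin-bundling gene qua (2.77, SE 0.60) also differed on the labelled knockdown side. For zuc and tej the bamGAL4 libraries labelled knockdown were the group apart. tej measured 26.6 and 62.2 CPM with nosGAL4 labelled knockdown, against 66.4 and 71.3 CPM in those controls, a change that did not pass the test. With bamGAL4 it fell to 2.04 and 4.97 CPM in libraries labelled knockdown, against 84.4 and 47.6 CPM in controls. exu, needed for bcd mRNA localisation, differed instead on the control side (1.60, SE 0.31), with 323 and 364 CPM in nosGAL4 controls against 633 and 682.5 CPM in bamGAL4 controls. zuc, tej, otu and qua were each called in 2 of the 8 fits that left out a library, and yl and exu in 4. Ctf4, a replication fork factor singled out after its values were seen, was low in bamGAL4 libraries labelled knockdown alone. It measured 81.5 and 62.2 CPM with nosGAL4 labelled knockdown, against 64.0 and 76.2 CPM in those controls, and 8.42 and 6.66 CPM with bamGAL4 labelled knockdown, against 68.6 and 107 CPM in those controls. Its driver difference was 3.58 (SE 0.41, edgeR adjusted p = 0.0031).

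Several heat shock genes had positive driver differences, and 6 of them were called in opposite directions with the drivers. Of 26 tested members of the list, 9 were called positive (34.6%, against 2.68% of all genes) and none negative. The driver difference was above 0 in 24 members, against 56.1% of all genes, and its median was 2.87 against 0.157 for all genes. With nosGAL4, 18 members rose and 3 fell, with a median fold change of 2.92. With bamGAL4, 8 rose and 14 fell, with a median of -1.19. Summed levels were 14800 and 15300 CPM in nosGAL4 libraries labelled knockdown, against 11100 and 11500 CPM in nosGAL4 controls, and 9120 and 8350 CPM in bamGAL4 libraries labelled knockdown, against 17200 and 23600 CPM in bamGAL4 controls. Between 5 and 11 members were called when 1 library was left out. The median difference was 1.25 without bamGAL4 control replicate 2, the library with the highest heat shock sum.

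Small heat shock genes of 1 cluster on chromosome 3L, which lie between 9371511 and 9385694 in dm6, included Hsp67Bc, Hsp22, CG4456, Hsp26, Hsp23 and Hsp27. These 6 were all called positive, while Hsp67Ba of the same list was not (1.49, SE 0.54, edgeR adjusted p = 0.131). Hsp67Ba rose with both drivers, with log2 fold changes of 4.58 with nosGAL4 and 3.1 with bamGAL4. In the cluster Hsp22 and CG4456 overlap, so their reads could be shared. Hsp22, a mitochondrial small heat shock protein gene, measured 93.6 and 84.4 CPM in nosGAL4 libraries labelled knockdown, against 16.7 and 12.04 CPM in nosGAL4 controls. With bamGAL4 the libraries labelled knockdown had 12.7 and 7.06 CPM, against 95.2 and 137 CPM in bamGAL4 controls. The order of the groups was thus turned round between drivers, and both the sets labelled knockdown and the control sets differed (6.18, SE 0.48, edgeR adjusted p = 0.000364). Hsp26 fell with both drivers, to 709.5 and 515 CPM with nosGAL4 labelled knockdown, against 1484.5 and 1686.5 CPM in those controls, and to 122.5 and 85.3 CPM with bamGAL4 labelled knockdown, against 3595 and 3361 CPM in those controls. The bamGAL4 libraries labelled knockdown stood apart for Hsp26 (3.69, SE 0.38, edgeR adjusted p = 0.00159) and for Hsp27 (3.20, SE 0.33, edgeR adjusted p = 0.00158).

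Hsp23 measured 216 and 185 CPM in nosGAL4 libraries labelled knockdown, against 26.7 and 14.72 CPM in nosGAL4 controls, which were the group apart. Its bamGAL4 levels were 85.1 and 72.4 CPM in libraries labelled knockdown, against 102 and 170.1 CPM in controls (4.07, SE 0.47, edgeR adjusted p = 0.00326). The Hsp40 co-chaperone gene DnaJ-1 rose to 514 and 601 CPM with nosGAL4 labelled knockdown, against 194 and 180.1 CPM in those controls. With bamGAL4 it fell to 174 and 158 CPM in libraries labelled knockdown, against 364 and 489.9 CPM in controls, and both sides differed (2.94, SE 0.32, edgeR adjusted p = 0.00256). stv, a co-chaperone of the Hsp70 system, rose with both drivers and more with nosGAL4 (2.81, SE 0.48). Hsp70Aa had a driver difference of 5.80 (SE 0.91, edgeR adjusted p = 0.0304), with 1566 and 1876 CPM with nosGAL4 labelled knockdown, against 214 and 69.0 CPM in those controls, and 523 and 298 CPM with bamGAL4 labelled knockdown, against 1117 and 2629 CPM in those controls. Reads of its near-identical copies could be split between genes, so single Hsp70 values are uncertain, and the pairs of control libraries differed more than 2-fold. Hsp67Bc, at the edge of the threshold (edgeR adjusted p = 0.0487), stayed called in 2 of the 8 fits that left out a library, and Hsp70Aa in 5.

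**Figure D3:**
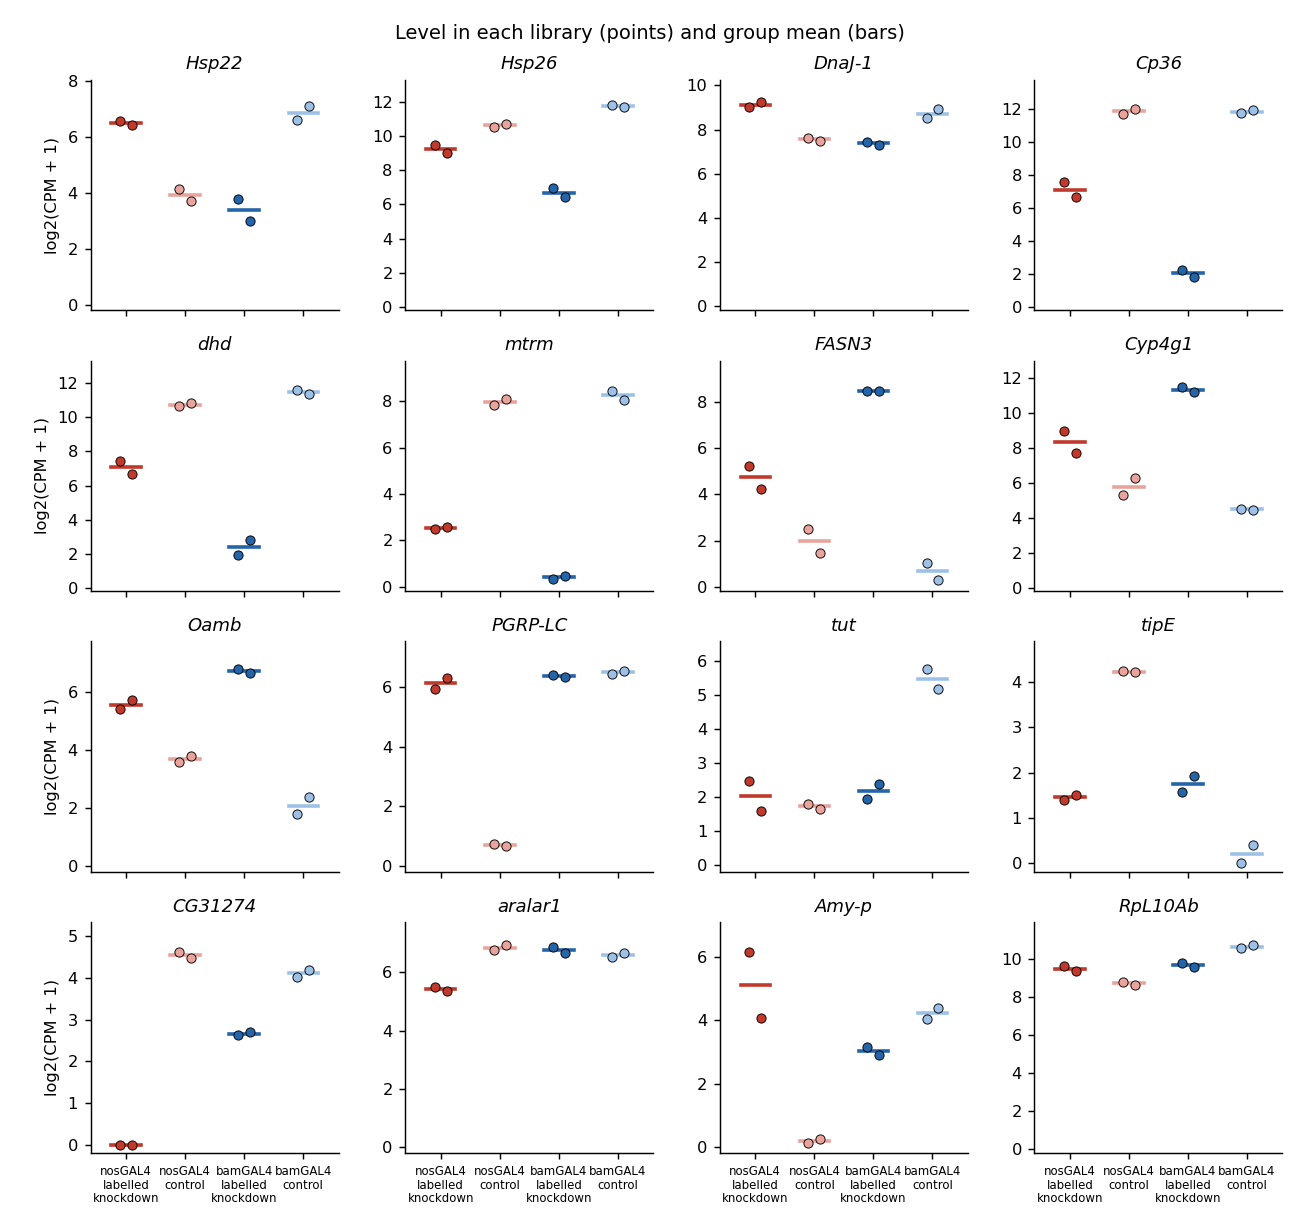
log2(CPM + 1) of 16 genes in each library (points) with group means (bars), in the order nosGAL4 labelled knockdown, nosGAL4 control, bamGAL4 labelled knockdown and bamGAL4 control. Cp36 and dhd are lowest in bamGAL4 libraries labelled knockdown, PGRP-LC is low in nosGAL4 controls and tut is high in bamGAL4 controls.

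Several called genes of lipid synthesis and transport, named here for being called and not from a list of such genes, rose further with bamGAL4. Others were not called, such as FASN1 (-0.94), Desat1 (-0.15), Lsd-2 (0.40) and bmm (0.58). FASN3, a fatty acid synthase gene, measured 37.0 and 17.9 CPM in nosGAL4 libraries labelled knockdown, against 4.60 and 1.73 CPM in nosGAL4 controls. With bamGAL4 the libraries labelled knockdown had 352 and 361 CPM, against 1.05 and 0.237 CPM in bamGAL4 controls (-6.15, SE 0.88, edgeR adjusted p = 0.0155). Cyp4g1, a cytochrome P450 gene of cuticular hydrocarbon synthesis, measured 510.5 and 209.7 CPM with nosGAL4 labelled knockdown, against 38.0 and 77.1 CPM in those controls. With bamGAL4 it measured 2833 and 2352 CPM in libraries labelled knockdown, against 21.9 and 21.3 CPM in controls (-4.26, SE 0.64, edgeR adjusted p = 0.0163). In both genes the sets labelled knockdown did not overlap, and the control sets did not overlap either, with nosGAL4 controls the higher. By the rule for sides the difference was assigned to the labelled knockdown side. Among all 240 calls, the sets labelled knockdown did not overlap in 206 and the control sets in 208. Fad2, a desaturase gene of female hydrocarbon synthesis, differed on both sides (-4.69, SE 0.58, edgeR adjusted p = 0.00547). It measured 33.6 and 21.9 CPM with nosGAL4 labelled knockdown, against 6.71 and 16.1 CPM in those controls, and 174 and 142 CPM with bamGAL4 labelled knockdown, against 2.49 and 2.53 CPM in those controls.

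The bamGAL4 libraries labelled knockdown were the group apart for FASN2 (-5.26, SE 0.74), for the hexokinase gene Hex-C (-3.72, SE 0.64), and for CG16904 (-4.83, SE 0.58), CG7910 (-5.47, SE 0.89) and CG6415 (-5.71, SE 1.00). CG17562 and CG43112, also apart in that group, reached 24.5 and 14.9 CPM and 20.9 and 18.8 CPM there and stayed under 1 CPM in every other library. Apoltp, encoding a lipid transfer particle (-4.77, SE 0.57), apolpp, encoding the lipophorin precursor (-4.63, SE 0.80), and the fat body gene fit (-4.64, SE 0.74) differed on the labelled knockdown side. apolpp measured 1101 and 432 CPM with nosGAL4 labelled knockdown, against 22.8 and 38.3 CPM in those controls, and 4350.0 and 6534 CPM with bamGAL4 labelled knockdown, against 12.6 and 5.23 CPM in those controls. Of the 10 yolk and yolk uptake genes 40% were called, against 2.68% of all genes. In this list apolpp, Apoltp and the lipid transfer gene Mtp (-1.67, SE 0.32) were negative and yl was positive. Apoltp and Fad2 stayed called in all 8 fits that left out a library, FASN2 in 7, FASN3 and fit in 5, Cyp4g1 in 4, Hex-C, CG6415, CG17562, CG43112 and Mtp in 3, and CG7910 and apolpp in 2.

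Fat body genes as a list did not move 1 way. Of 29 listed fat body genes 24 were tested, and 20.8% of these were called, against 2.68% of all genes. There were 3 negative calls, FASN2, Apoltp and apolpp, and 2 positive calls, Amy-p and Obp44a. The summed level of the list was 3560 and 2070 CPM in nosGAL4 libraries labelled knockdown, against 1180 and 1370 CPM in nosGAL4 controls. With bamGAL4 it was 9960 and 11500 CPM in libraries labelled knockdown, against 1690 and 1450 CPM in controls, and apolpp alone made up 4350.0 and 6534 CPM of the sums labelled knockdown. The part of fat body RNA in the lipid gene results was not tested. The fat body storage gene Lsp2 measured 537 and 157 CPM with nosGAL4 labelled knockdown, against 2.69 and 8.92 CPM in those controls, and 1779 and 1233 CPM with bamGAL4 labelled knockdown, against 0.524 and 2.06 CPM in those controls. Fbp1, another defining marker, was at 34.5 and 20.4 CPM with nosGAL4 labelled knockdown and 0 and 0.173 CPM in those controls, against 24.7 in each bamGAL4 library labelled knockdown and 0 and 1.27 CPM in those controls. Neither Lsp2 (-4.16) nor Fbp1 (2.99) passed the test for a driver difference, nor did Lsp1beta (-5.17), Lsp1alpha (4.19), Fbp2 (4.52) or Lsp1gamma (-0.32). The median difference of the list was -0.24, against 0.157 for all genes.

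A pair of octopamine receptor genes was called negative. Oamb, whose receptor acts in ovulation, measured 41.8 and 51.9 CPM in nosGAL4 libraries labelled knockdown, against 11.2 and 12.8 CPM in nosGAL4 controls. In bamGAL4 libraries labelled knockdown it measured 110.2 and 101 CPM, against 2.49 and 4.20 CPM in bamGAL4 controls, and both sides differed (-2.98, SE 0.40, edgeR adjusted p = 0.00798). For Octbeta2R the sets labelled knockdown overlapped, at 108 and 151.5 CPM with nosGAL4 and 149.9 and 148 CPM with bamGAL4. Its controls differed, with 10.3 and 7.36 CPM for nosGAL4 and 1.83 and 1.504 CPM for bamGAL4 (-2.61, SE 0.41, edgeR adjusted p = 0.015). Oamb stayed called in all 8 fits that left out a library and Octbeta2R in 4.

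In the list that holds digestive enzyme genes, 3 enzyme genes were called and were lowest in nosGAL4 controls. Of the 30 genes in the list of oviduct, spermatheca and digestive enzymes, 20 passed the filter, and a gene that passed through the groups where it was high had to differ, so its median is plotted as a description and no weight is put on it. The test called 3 positive, Amy-p, Jon99Ciii and Jon99Ci, and 1 negative, Octbeta2R. The called share, 20% against 2.68% of all genes, is given no weight for the same reason. The list summed to 447 and 205.3 CPM in nosGAL4 libraries labelled knockdown, against 14.6 and 8.83 CPM in nosGAL4 controls. With bamGAL4 it summed to 238 and 281 CPM in libraries labelled knockdown, against 225 and 383 CPM in controls. Of these sums, Octbeta2R, which is no enzyme gene, made up 108 and 151.5 CPM in nosGAL4 libraries labelled knockdown. The trypsin genes were not called and did not share 1 pattern. alphaTry had 11.6 and 0.398 CPM in nosGAL4 libraries labelled knockdown and none in those controls, and 5.85 and 12.3 CPM in bamGAL4 libraries labelled knockdown, against 26.7 and 49.8 CPM in those controls. betaTry also had no count in nosGAL4 controls but was near absent in bamGAL4 controls too, at 0.131 and 0.317 CPM, and deltaTry and thetaTry had none in any nosGAL4 library. The amylase gene Amy-p measured 70.1 and 15.7 CPM with nosGAL4 labelled knockdown, against 0.0959 and 0.173 CPM in those controls, and 7.89 and 6.46 CPM with bamGAL4 labelled knockdown, against 15.6 and 19.9 CPM in those controls. Its driver difference was 6.12 on the log2(CPM + 1) scale (edgeR adjusted p of the fitted difference = 0.00622), and it stayed called in 7 of the 8 fits that left out a library. Jon99Ciii, a serine protease gene with close copies that could share reads, differed by 6.63 on that scale (edgeR adjusted p of the fitted difference = 0.00898). CG12374, called but not in the list, measured 85.1 and 9.95 CPM with nosGAL4 labelled knockdown, against 0 and 0.433 CPM in those controls. With bamGAL4 it measured 7.27 and 7.65 CPM in libraries labelled knockdown, against 119 and 207.5 CPM in controls. The nosGAL4 pair labelled knockdown differed several-fold in all of these genes, and CG12374 stayed called in 2 of the 8 fits that left out a library. Amy-p also has a near-identical copy, so its reads could be split. The part of these enzymes' source tissue in the result was not tested.

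Ribosomal protein genes had small positive differences made mostly by the controls. Of 80 cytoplasmic ribosomal protein genes, 25 were called positive and none negative, against 2.68% of all genes called. Their median was 1.46 and all 80 were above 0, against 56.1% of all genes. With nosGAL4 36 rose and none fell, and with bamGAL4 1 rose and 52 fell. Between the control sets 38 differed, and between the sets labelled knockdown 1 did. RpL10Ab measured 788 and 679 CPM in nosGAL4 libraries labelled knockdown, against 453 and 406 CPM in nosGAL4 controls. In bamGAL4 libraries labelled knockdown it measured 889.8 and 764 CPM, against 1522 and 1730.4 CPM in bamGAL4 controls, and the bamGAL4 controls were the group apart (1.75, SE 0.31, edgeR adjusted p = 0.0261). RpL36A (1.95, SE 0.34) and RpL39 (1.74, SE 0.31) also had the bamGAL4 controls apart. The number of calls varied with the setting. With library totals 15 were called and with DESeq2 71, and with an offset for transcript length the median was 0.77 and 1 was called. None was called without either nosGAL4 control or without either bamGAL4 library labelled knockdown, and 74 were called without nosGAL4 labelled knockdown replicate 2.

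Of 11 tested ribosomal protein paralogs 3 were called, against 2.68% of all genes. RpS5b (3.15, SE 0.64), RpS14b (1.60, SE 0.35) and RpL24-like (1.52, SE 0.30) were positive. RpS5b, a germline paralog, measured 138 and 43.2 CPM with nosGAL4 labelled knockdown, against 347 and 402 CPM in those controls. With bamGAL4 it measured 30.6 and 31.5 CPM in libraries labelled knockdown, against 997 and 1282 CPM in controls. RpS14b has a near-identical neighbour, RpS14a, which was also called, so reads could be split between them. None of the 3 was called with the length offset. Proteasome genes were above 0 in 31 of 31, against 56.1% of all genes, with a median of 0.78. Of these 31 edgeR called none, while 17 had an unadjusted p under 0.05, DESeq2 called 10 and limma-voom 5. Oxidative phosphorylation genes had a median of 0.54 that was -0.02 with the length offset; edgeR called 0 of 41, 10 had an unadjusted p under 0.05, DESeq2 called 3 and limma-voom 2. Scaled to ribosomal protein genes, the medians were -0.62 for the proteasome and -0.87 for oxidative phosphorylation, against -1.23 for all genes. In the main fit the median of all genes was 0.157.

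**Figure D4:**
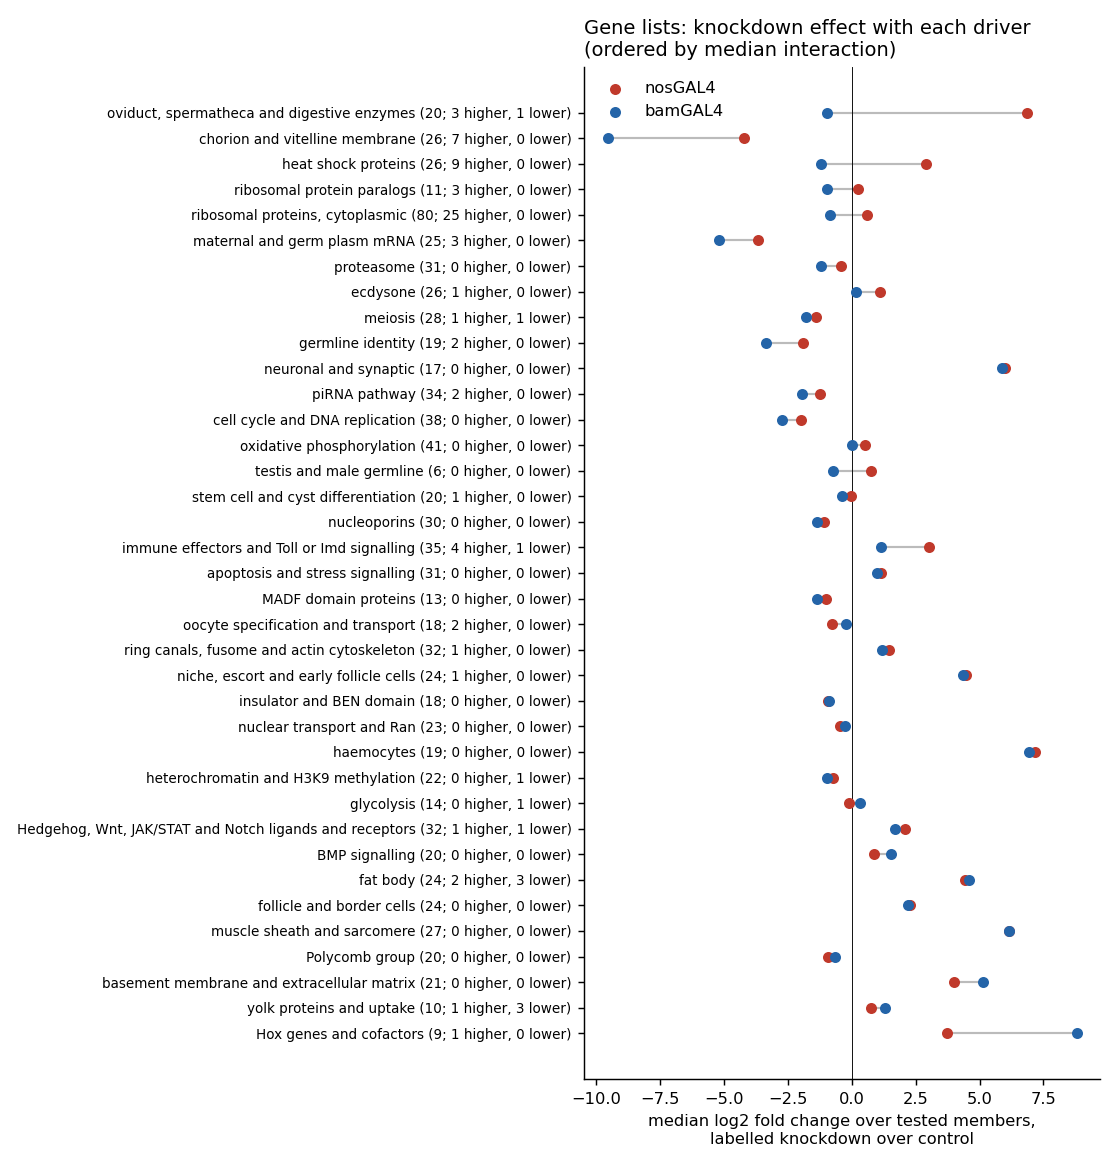
Median log2 fold change over the tested members of each gene list with nosGAL4 (red) and bamGAL4 (blue), labelled knockdown over control, ordered by median driver difference, with the number tested and the number of calls. Eggshell genes have medians of -4.20 and -9.54 and heat shock genes 2.92 and -1.19, while muscle genes have 6.14 and 6.16.

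Driver differences ran with transcript length, and so did differences between the control sets. In the shortest of 5 equal classes of genes, up to 1143 bases, the median driver difference was 0.81 with 70 positive and 7 negative calls. In the longest class, from 3913 bases, it was -0.63 with 5 positive and 47 negative calls. The median difference between control sets, nosGAL4 minus bamGAL4, was -0.60 in the shortest class and 0.47 in the longest. Between the sets labelled knockdown these medians were 0.18 and -0.16. Positive calls had a median length of 1116 bases and negative calls 3482.5 bases, against 2054 bases for all genes tested. Negative calls on the control side had the longest median, 5638 bases. With a length offset there were 66 positive and 74 negative calls, of which 52 and 59 were among the 136 and 104. The part of transcript length in single calls was not tested.

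**Figure D5:**
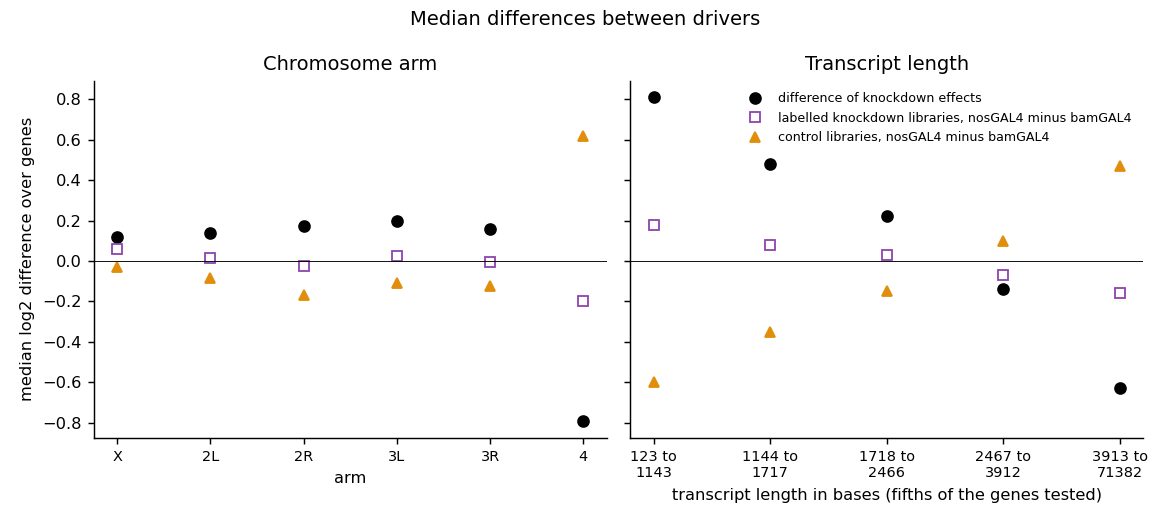
Median log2 differences over genes by chromosome arm (left) and by class of transcript length in bases (right), for the driver difference and for nosGAL4 minus bamGAL4 among libraries labelled knockdown and among controls. The driver difference is -0.79 on chromosome 4 and runs with length down to -0.63 in the longest class, opposite in sign to the difference between controls.

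Chromosome 4 genes had the largest share of calls of any arm. Of 75 tested genes, none was positive and 9 were negative (12%), against 2.02% to 3.08% called on the other arms. Their median driver difference was -0.794, with medians of 0.116 to 0.198 on the other arms. Between control sets 20 genes (26.7%) differed, and between sets labelled knockdown 1 gene (1.33%) did. The bamGAL4 control mean was the lowest of the 4 group means in 49 of the 75 genes, against 24.5% of all genes. The bamGAL4 controls were the group apart in 7 of the 9 called genes, PlexA, Eph, Dyrk3, lgs, gw, CG31998 and 4E-T. PMCA was on the control side too, and apolpp lay on the labelled knockdown side. PlexA, a semaphorin receptor gene, measured 660.0 and 694.5 CPM in nosGAL4 libraries labelled knockdown, against 371 and 275 CPM in nosGAL4 controls. In bamGAL4 libraries labelled knockdown it measured 706 and 963 CPM, against 75.6 and 57.2 CPM in bamGAL4 controls (-2.58, SE 0.37, edgeR adjusted p = 0.00914). lgs, a Wnt coactivator gene, had a difference of -2.10 (SE 0.31) and gw, of the microRNA silencing complex, -1.44 (SE 0.30). Chromosome 4 transcripts were long, with a median of 3879 bases. With the length offset the median was -0.51 against 0.04 for other genes, and 2 were called. It was below that of the other genes in every fit that left out a library, with 0 to 17 negative calls, 0 of them without bamGAL4 labelled knockdown replicate 2. These alternatives by arm were chosen after seeing the data.

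Some genes were near absent in 1 control set. PGRP-LC, the receptor gene of the Imd immune pathway (dm6, chromosome 3L, 9338810 to 9348336), had the smallest p of all genes. It measured 59.3 and 77.9 CPM in nosGAL4 libraries labelled knockdown, against 0.671 and 0.606 CPM in nosGAL4 controls. In bamGAL4 libraries it measured 83.4 and 79.7 CPM in those labelled knockdown, against 85.3 and 91.8 CPM in controls (6.84, SE 0.39, edgeR adjusted p = 5.62e-05). The nosGAL4 controls alone stood apart. pst, which affects resistance to viruses, had the same group apart, with 85.1 and 113 CPM with nosGAL4 labelled knockdown and 1.06 and 1.04 CPM in those controls. With bamGAL4 it measured 303 and 322 CPM in libraries labelled knockdown, against 95.4 and 95.2 CPM in controls (4.84, SE 0.36, edgeR adjusted p = 0.000364).

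tipE, a sodium channel subunit gene, was high in nosGAL4 controls alone. It measured 1.62 and 1.86 CPM in nosGAL4 libraries labelled knockdown, against 17.8 and 17.5 CPM in those controls. With bamGAL4 it was at 1.95 and 2.78 CPM in libraries labelled knockdown, against 0 and 0.317 CPM in controls (-6.90, SE 1.01, edgeR adjusted p = 0.0105). tut, a partner of bam in the male germline, was high in bamGAL4 controls alone. It measured 4.59 and 1.99 CPM with nosGAL4 labelled knockdown, against 2.49 and 2.16 CPM in those controls, and 2.84 and 4.27 CPM with bamGAL4 labelled knockdown, against 53.1 and 35.3 CPM in those controls (4.13, SE 0.65, edgeR adjusted p = 0.0145). The bamGAL4 controls also stood apart for smash, a gene of epithelial junctions (-2.72, SE 0.36), and for CG32581, which had no count in them and 5.76 to 38.0 CPM in the other libraries. CG4562 had no single group apart (4.30, SE 0.40). It measured 21.8 and 18.3 CPM with nosGAL4 labelled knockdown, against 3.26 and 5.11 CPM in those controls, and 18.9 and 22.6 CPM with bamGAL4 labelled knockdown, against 85.5 and 86.1 CPM in those controls. PGRP-LC, pst, smash, CG32581 and CG4562 stayed called in all 8 fits that left out a library, tipE in 7 and tut in 4.

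The nosGAL4 controls were also the group apart among negative calls for the Wnt scaffold gene Axn (-1.84, SE 0.32), FBXO11 (-1.78, SE 0.35) and the glycosyltransferase gene Pgant9 (-1.56, SE 0.31), each called in 3 of the 8 fits that left out a library. Among 35 immune genes, 4 were positive, PGRP-LC, AttB, pirk and Rel, and Tl, the Toll receptor gene, was negative (-1.51, SE 0.32). Over all genes 2.68% were called. AttB, an antibacterial attacin gene with a close copy, AttA, that could share its reads, was highest in nosGAL4 libraries labelled knockdown. It measured 31.5 and 33.3 CPM there, against 1.63 and 1.39 CPM in nosGAL4 controls, and 7.89 and 4.47 CPM with bamGAL4 labelled knockdown, against 5.50 and 4.28 CPM in those controls (4.07, SE 0.57, edgeR adjusted p = 0.00914). pirk, an inhibitor of the Imd pathway, was on the control side (5.97, SE 1.06) and the NF-kappaB gene Rel on the labelled knockdown side (1.66, SE 0.31).

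The nosGAL4 libraries labelled knockdown were the group apart in 6 positive and 5 negative calls. That is 4.58% of calls, near the 5.2% of all genes with this group apart. AttB, Imp, CG42240, Lip4, CG12071 and CG13482 were the 6. Imp, an mRNA-binding protein gene singled out after its values were seen, rose to 846.6 and 733 CPM with nosGAL4 labelled knockdown, against 235.5 and 247 CPM in those controls. With bamGAL4 it measured 81.1 and 181 CPM in libraries labelled knockdown, against 173 and 183 CPM in controls (2.15, SE 0.46, edgeR adjusted p = 0.042). The 5 negative genes were CG31274, CG42507, kappaB-Ras, CG5966 and aralar1. aralar1, a mitochondrial carrier gene, measured 43.9 and 40.2 CPM with nosGAL4 labelled knockdown, against 107.5 and 121 CPM in those controls, and 115.2 and 99.5 CPM with bamGAL4 labelled knockdown, against 91.8 and 99.8 CPM in those controls (-1.61, SE 0.30, edgeR adjusted p = 0.0295). CG5966 (-2.44, SE 0.46) was called in 2 and aralar1 in 3 of the 8 fits that left out a library.

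CG31274, CG42507, kappaB-Ras and mei-217 had no count in either nosGAL4 library labelled knockdown. CG31274 measured 23.5 and 21.3 CPM in nosGAL4 controls, 5.14 and 5.47 CPM in bamGAL4 libraries labelled knockdown and 15.3 and 17.2 CPM in bamGAL4 controls. Against a floor of 3 counts over the empty group, its driver difference was -5.16 or lower (edgeR adjusted p of the fitted difference = 0.0031). For CG42507 the bound was -4.95, for kappaB-Ras -4.49 and for mei-217, a meiosis gene with 15.1 and 2.77 CPM in nosGAL4 controls, -7.24. CG31274 and CG42507 stayed called in all 8 fits that left out a library, and kappaB-Ras and mei-217 in 3. With limma-voom neither kappaB-Ras (adjusted p = 0.0633) nor mei-217 (adjusted p = 0.216) was called. Apart from CG31274, these genes overlap others on the same strand, so reads could be split differently between libraries: CG42507 with Trl, kappaB-Ras with CG30503 and mei-217 with mei-218. CG31274 overlaps asRNA:CR45213 on the other strand. The strand setting of counting is not given, so its reads could be shared too. Trl, mei-218 and their differences of -0.45 and -0.74 did not pass the test. CG30503 had the reverse pattern to kappaB-Ras, with 28.6 and 37.7 CPM with nosGAL4 labelled knockdown and no count in those controls, where kappaB-Ras had 13.1 and 17.1 CPM.

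In 39 genes (0.435%) the responses themselves were called in opposite directions, 28 up with nosGAL4 and down with bamGAL4 (0.313%) and 11 the other way (0.123%). Of the 39, 23 lay on the control side, 10 on the labelled knockdown side, 2 on both and 4 on neither. The 28 held 6 heat shock genes, Hsp22, Hsp23, Hsp67Bc, Hsp70Aa, CG4456 and DnaJ-1, and cytoplasmic ribosomal protein genes such as RpL10Ab and RpS14a. They also held Jon99Ci of the digestive enzyme list, and yip7, CG12374, CG17192 and CG6295, digestive enzyme genes outside that list. The 11 held tipE, CG6125, Kdm4B, CG42233, FBXO11, Mtp, E(bx), Sin3A, Gk2, botv and PDZ-GEF. Kdm4B, a histone demethylase gene, measured 14.6 and 16.8 CPM in nosGAL4 libraries labelled knockdown, against 62.5 and 69.0 CPM in nosGAL4 controls. In bamGAL4 libraries labelled knockdown it measured 36.2 and 34.7 CPM, against 7.34 and 24.9 CPM in bamGAL4 controls (-3.18, SE 0.64, edgeR adjusted p = 0.0388). The sets labelled knockdown and the control sets each did not overlap, and the control contrast was the 1 that passed. The rise of Kdm4B with bamGAL4 passed narrowly (edgeR adjusted p = 0.0486). With the length offset its driver difference was -2.55 and did not pass (edgeR adjusted p = 0.067). Its exons overlap CG17724 and seq on the same strand, so reads could be shared. The number of opposite calls was 42 with RLE size factors, 219 with scaling to ribosomal protein genes and 4 to 168 when 1 library was left out.

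Lists with no call included muscle sheath genes, nucleoporins, Polycomb group genes and basement membrane genes, among 16 of 37 lists. For the 27 muscle genes the median fold change was 6.14 with nosGAL4 and 6.16 with bamGAL4, with 26 genes up with each. Nucleoporin genes had a median driver difference of 0.33; edgeR called 0 of 30, 6 positive and 5 negative had an unadjusted p under 0.05, and DESeq2 called 1 and 5 and limma-voom 1 and 1. Basement membrane genes had a median of -0.67; edgeR called 0 of 21, 5 negative had an unadjusted p under 0.05, DESeq2 called 3 and limma-voom 0. Among 20 Polycomb group genes edgeR called 0, with 1 positive and 5 negative at an unadjusted p under 0.05 and 2 negative by each of DESeq2 and limma-voom. In 22 heterochromatin genes Kdm4B was the 1 call (4.55%, against 2.68% of all genes).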

How the data were processed

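The values used were gene-level expected counts deposited by the authors, 1 table per driver, joined on the gene identifier. Per the submitters' processing notes, the tools named were Salmon 1.2.1, STAR 2.7.5b, Trim Galore 0.6.6 and FastQC 0.11.8, and the build was dm6. For the annotation and strand setting of counting, the sources used here give nothing. Between 92.51% and 95.05% of the estimated counts per library were whole numbers, and all were rounded.

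Genes were kept with edgeR 4.0.16 filterByExpr (minimum count 10, minimum total 15), scaled by TMM and tested with its robust quasi-likelihood test in R 4.3.3 over all 8 libraries, with Benjamini-Hochberg adjustment over 8957 genes, a threshold of 0.05 and 4 residual degrees of freedom. DESeq2 1.42.0 and limma 3.58.1 (voom), other scalings, filters, a replicate block, a transcript length offset and leaving out each library were alternatives. CPM values use TMM-scaled totals; 3 counts, the floor used for a group with none, equal 0.238 to 0.405 CPM in single libraries. Positions come from an Ensembl BDGP6 annotation with dm6 coordinates. The code was tested on simulated data.

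Named genes were stwl, nos and bam, the 12 largest positive and 12 largest negative differences on the log2(CPM + 1) scale among calls with a group mean of at least 5 CPM, groups without overlap on at least 1 side and at most 4 placeholder symbols per direction, up to 3 called members per list, 4 opposite calls per direction, and members of counts of 5 or fewer. Other genes with values were singled out after their values were seen. The members and lists were chosen with earlier results of these data known.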

Additional observations from a re-analysis of the deposited data

Results flagged for a closer look

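The responses to the drivers differed by the interaction test in 136 genes with a positive and 104 with a negative difference. Of these, 28 rose with nosGAL4 and fell with bamGAL4, and 11 fell with nosGAL4 and rose with bamGAL4.

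In the second set, the fitted driver differences were -6.90 for tipE, -5.58 for CG6125, -3.18 for Kdm4B and -2.65 for CG42233. CG6125 measured 0.135 and 0.265 CPM in nosGAL4 libraries labelled knockdown, against 1.82 and 3.03 CPM in nosGAL4 controls, and 13.1 and 7.85 CPM in bamGAL4 libraries labelled knockdown, against 2.62 and 2.38 CPM in bamGAL4 controls. CG42233 measured 13.4 and 9.55 CPM in nosGAL4 libraries labelled knockdown, against 20.0 and 26.5 CPM in nosGAL4 controls, and 13.1 and 17.6 CPM in bamGAL4 libraries labelled knockdown, against 3.54 and 6.25 CPM in bamGAL4 controls.

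In the first set, the fitted differences were 10.43 for yip7, 12.09 for CG12374, 13.42 for CG17192 and 8.65 for CG6295, each with few or no counts in nosGAL4 controls, so that the fitted size depends on the prior count. On the log2(CPM + 1) scale they were 5.92 for yip7, 8.91 for CG12374, 5.91 for CG17192 and 5.70 for CG6295.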

How the results depend on the processing

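None of the 72 called genes named by rule changed direction in any of the 17 alternatives. The number of positive calls, 136, was 455 with DESeq2, 289 with no filter on low counts, 66 with the length offset, 301 with limma-voom and 17 to 997 when 1 library was left out. The number of negative calls, 104, was 161 with RLE size factors, 176 with library totals, 3331 with scaling to ribosomal protein genes, 609 with DESeq2, 248 with no filter and 177 with limma-voom, and 10 to 573 when 1 library was left out. Opposite calls, 39, numbered 219 with scaling to ribosomal protein genes, 83 with DESeq2, 22 with the length offset, 75 with limma-voom and 17 when both responses had to be at least 2-fold, and 4 to 168 when 1 library was left out. The cause was not tested.

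With the replicate block there were 89 positive, 80 negative and 37 opposite calls. No pairing by replicate number was seen: deviations of same-numbered libraries correlated at -0.0375 with nosGAL4 and -0.00325 with bamGAL4. With 2 libraries a group, these values cannot decide whether same-numbered libraries share a cross or batch.

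Differences that were not called changed sign: bam (0.38) was -1 with scaling to ribosomal protein genes, -0.16 with limma-voom and -4.9 to 2.32 when 1 library was left out, with -4.9 without nosGAL4 labelled knockdown replicate 2 and -0.48 without bamGAL4 labelled knockdown replicate 1. nos (0.67) was -0.84 with that scaling and -0.37 to 1.27 when 1 library was left out, lowest without nosGAL4 labelled knockdown replicate 1. stwl (0.72) was -0.8 with that scaling and 0.04 to 1.17 when 1 library was left out, lowest without nosGAL4 labelled knockdown replicate 1 and called (edgeR adjusted p = 0.0487) without replicate 2.

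A fit that leaves out 1 library has 1 in its group, which is assumed to vary like the others. Depth limits genes near 3 counts, and intervals for single genes rest on 2 libraries a group.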
